A study of Mus musculus with 65 samples.

Results

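Retinas holding repopulated microglia were compared with and without a systemic challenge by lipopolysaccharide (LPS), the outer membrane component of Gram-negative bacteria. The comparison took 8 of the 65 mice of the series, 4 mice of the LPSREPOP group (labelled LPS_PLX) and 4 mice of the REPOP60 group (labelled RP2M), and they were chosen by their labels and by no measured value. Every animal was an adult C57BL/6J mouse, and 1 library of poly-A RNA was made from the retinal homogenate of each. Both groups had first been given PLX5622, an inhibitor of the receptor CSF1R that removes microglia. REPOP60 mice then went back to control diet for the longest repopulation time of the series and received no LPS. LPSREPOP mice received LPS, and the study describes them as challenged after their microglia had returned. Neither the repopulation time of LPSREPOP nor the time from LPS to collection is given in the sources used here, so that the effect of LPS cannot be told apart from any difference in repopulation time. For the same comparison with resident microglia, 3 LPSCD mice (labelled LPS_CD, control diet and LPS) were set beside the 2 control diet mice (CD) whose titles carry the same suffix as the other 11 libraries.

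LPS is sensed mainly by TLR4 with its co-receptors CD14 and MD-2, and the signal passes through NF-kB to cytokines, which act in turn through receptors such as that of interleukin-6 and the transcription factor STAT3. Acute phase proteins, complement, endothelial adhesion molecules and class I antigen presentation are known targets of these pathways. In the retina, the cells that can respond include microglia, the endothelium of the inner vessels, astrocytes and the Müller glia that span the tissue. Because whole retina was measured, more cells of a type and more RNA per cell cannot be told apart in any value below.

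Sequencing depth was even, with total counts of 7431272 to 7655741 reads per mouse over the 8 libraries, so that 3 counts, taken as the floor, correspond to 0.388 to 0.409 CPM, the reads of a gene scaled to a common library size. Intervals and floors cover counting error only. The retinal identity of the samples was clear from the photoreceptor genes Nr2e3 and Arr3, whose levels are given below, and all 30 microglia markers were detected in both groups. Mitochondrial transcripts took 2.99% to 3.59% of the counts without separating the groups, whereas ribosomal protein genes took 0.408% to 0.542% in LPSREPOP and 0.379% to 0.399% in REPOP60. The LPSREPOP mice were far from alike. On the leading principal component of 12440 genes, which held 43.3% of the variance, REPOP60 mice lay between −10.4 and −8.99, and LPSREPOP replicates 1 to 4 lay at 4.14, 22.8, 13.8 and −1.41. LPSREPOP replicate 4 was thus closest to the unchallenged mice, and results are given with and without it. Each group held 2 mice with a title number beginning with 0 and 2 with a title number beginning with 1, here called the title series. The labels do not say what these numbers mean.

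In LPSREPOP, 98 genes were higher and 11 were lower than in REPOP60 as differentially expressed genes (DEGs; edgeR FDR under 0.01 and a change of more than 2-fold), out of 24927 tested. These are 0.393% and 0.0441% of the genes tested. Without the fold threshold, at an edgeR FDR under 0.05, 466 genes rose and 262 fell, 1.87% and 1.05% of those tested, and 552 of these 728 genes changed less than 2-fold. The response was thus mostly an increase, with a median log2 fold change of 1.69 over the 98 DEGs that rose, beside −0.0068 over all tested genes. Of the 98, 94 are protein-coding, and in 78 the lowest LPSREPOP mouse was above the highest REPOP60 mouse. Among all tested genes such a separation was found in 3.81% upwards and 4.23% downwards. Of the 11 DEGs that fell, 10 had no overlap between the groups. In the text below, a gene that rose or fell had an edgeR FDR under 0.05, all levels are CPM on TMM-scaled library sizes, and values per mouse are in the order of replicates 1 to 4.

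The number of DEGs depended on each mouse. It was 72, 81, 52 and 171 without LPSREPOP replicates 1 to 4 and 52, 45, 52 and 38 without REPOP60 replicates 1 to 4. Of the 171 DEGs called without LPSREPOP replicate 4, 156 were higher and 15 were lower. A term for the title series left 10 DEGs, and 197 genes at an FDR under 0.05. Under it the raised genes numbered 1 in place of 5 for neutrophils, 0 in place of 3 for LPS sensing, 1 in place of 4 downstream of cytokine receptors and 2 in place of 5 for Müller glia. No gene of the cone, inner neuron, cytokine and chemokine, lymphocyte, erythrocyte or pigment epithelium lists passed under it. All 98 DEGs that rose were higher within both title series, by a median difference in log2(CPM + 1) of 0.76 among the mice numbered from 0 and of 1.47 among those numbered from 1. The 98 were selected on the group difference in the same mice. In 78 of them the groups did not overlap, which alone makes the difference positive in both title series. The shared sign thus largely follows from the selection and is no test of the title series. Vwf, Kif4, Cldn5, Eng and Cybb, among the 136 genes chosen for naming, stayed at an FDR under 0.05 in all 18 alternative settings.

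**Figure D1:**
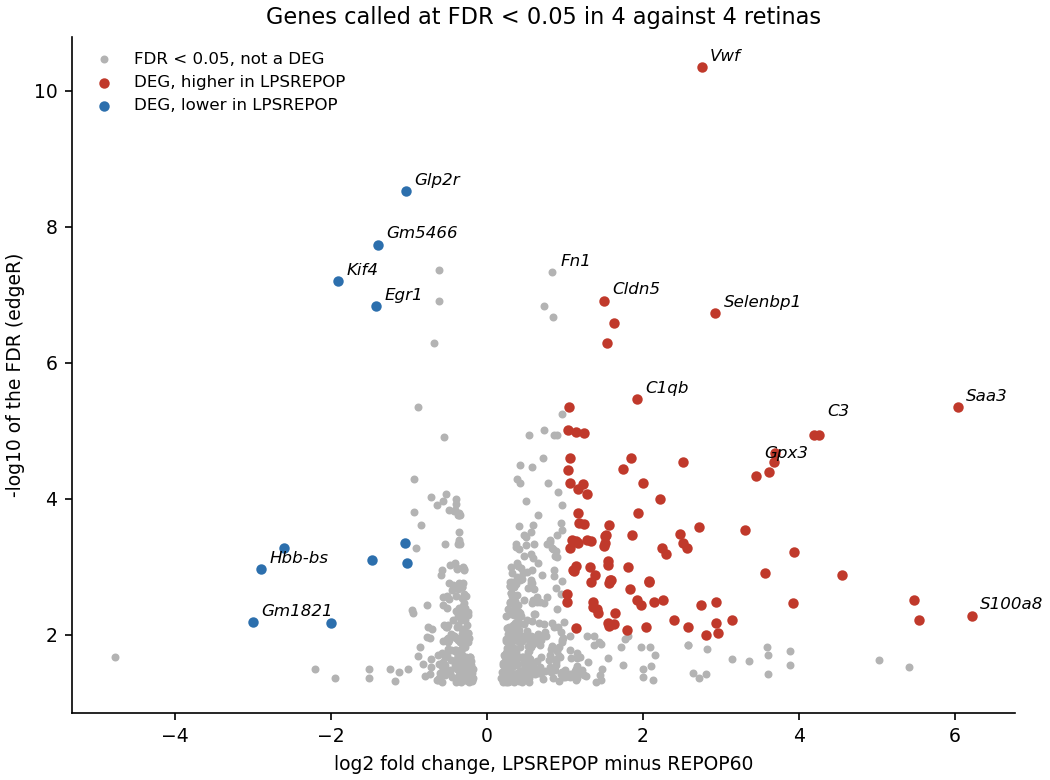
Log2 fold change of LPSREPOP against REPOP60 (horizontal axis) and −log10 of the edgeR FDR (vertical axis) for the genes at an FDR under 0.05, each point a gene. The 466 genes that rose reach further from 0 than the 262 that fell, and Vwf has the smallest FDR.

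The strength of the response differed between the challenged mice. Over the 98 DEGs that rose, the median difference from the REPOP60 mean in log2(CPM + 1) was 1.14, 1.49, 1.46 and 0.61 in LPSREPOP replicates 1 to 4. LPSREPOP replicate 4 was the lowest of the 4 challenged mice for 83 of the 98 genes and the highest for none. The highest value was found in replicate 2 for 54 genes and in replicate 3 for 41. These genes were selected on the same 4 mice, so that the medians describe the spread and are no test. LPSREPOP replicates 2 and 3 have title numbers beginning with 1, and replicates 1 and 4 have title numbers beginning with 0. A difference between mice and one between title series cannot be told apart here.

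**Figure D2:**
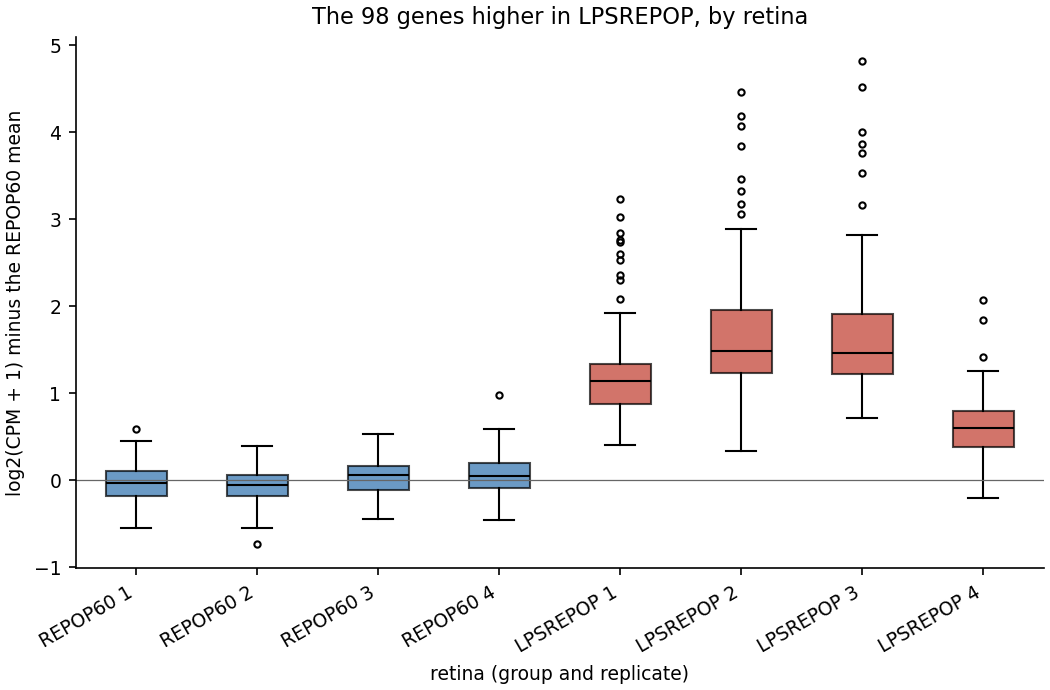
Log2(CPM + 1) minus the REPOP60 mean for the 98 DEGs that rose, as 1 box plot per retina (box, quartiles with the median; whiskers and points, the remaining genes). LPSREPOP replicates 2 and 3 have medians near 1.5, replicate 4 lies at 0.61, and the REPOP60 mice lie around 0.

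Since NF-kB and STAT3 carry much of the LPS response, the promoters of the DEGs were searched for short motifs, and 4 of the 8 stretches with a kB or STAT match among the named DEGs that rose are shown here, those of an adhesion molecule, a metalloreductase and both chains of class I molecules. The other 4 belong to C1qc, Chil1, Pglyrp1 and H2-Q4. They are the 250 bases before the annotated start, read on the strand of the gene from RefSeq (GRCm38.p6), with matches in capitals. The matches in Icam1 and the last of the 3 in Steap4 are to the STAT motif TTCCNGGAA, and the other matches are to the kB decamer, of which 2 overlap in H2-K1.
Icam1 (chr9:21015690-21015939, + strand): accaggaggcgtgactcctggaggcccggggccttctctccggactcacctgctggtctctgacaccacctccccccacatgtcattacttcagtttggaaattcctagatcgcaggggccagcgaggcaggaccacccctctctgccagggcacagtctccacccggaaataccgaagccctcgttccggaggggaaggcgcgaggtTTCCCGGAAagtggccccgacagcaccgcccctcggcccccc
Steap4 (chr5:7960222-7960471, + strand): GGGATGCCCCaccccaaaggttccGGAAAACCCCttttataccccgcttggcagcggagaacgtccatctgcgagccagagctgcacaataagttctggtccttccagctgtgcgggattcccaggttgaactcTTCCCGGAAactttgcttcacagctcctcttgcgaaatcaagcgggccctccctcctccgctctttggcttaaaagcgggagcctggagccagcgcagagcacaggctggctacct
B2m (chr2:122147437-122147686, + strand): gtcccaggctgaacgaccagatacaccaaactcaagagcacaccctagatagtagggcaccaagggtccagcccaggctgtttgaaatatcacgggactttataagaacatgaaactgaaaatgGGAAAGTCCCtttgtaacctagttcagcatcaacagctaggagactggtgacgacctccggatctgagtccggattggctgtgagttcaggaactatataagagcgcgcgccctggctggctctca
H2-K1 (chr17:34000348-34000597, − strand): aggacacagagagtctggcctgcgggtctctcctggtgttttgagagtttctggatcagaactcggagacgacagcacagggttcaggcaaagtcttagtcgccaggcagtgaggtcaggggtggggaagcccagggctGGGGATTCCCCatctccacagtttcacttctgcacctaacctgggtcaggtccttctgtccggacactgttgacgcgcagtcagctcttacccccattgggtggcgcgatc
A promoter of 300 bases (250 before and 50 after the start) was at hand for 72 of the 98 DEGs that rose, from the first start listed for each gene, and both strands were searched. The kB decamer was found in 10 of them (13.9%) and in 4.35% of all 27025 promoters. The STAT motif was found in 2 (2.78%, against 1.15% of all). For the C/EBP motif TTGCNNAA the numbers were 12 (16.7%, against 10.8%), for the interferon response motif GAAANNGAA 9 (12.5%, against 8.57%) and for the glucocorticoid receptor motif ACANNNTGT 15 (20.8%, against 6.90%). Among the 8 DEGs that fell and had a promoter, none had the kB decamer, the STAT motif or the interferon motif, 2 had the C/EBP motif and 3 the glucocorticoid motif. The kB decamer was also present upstream of Nfkbia and Tnfaip3, whose levels are given below and did not pass the test. A match is a description of the sequence and was not tested as a binding site.

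Endothelial genes were among the most uniformly raised. Of 30 genes of endothelial identity and barrier, 16 rose and none fell, with a median log2 fold change of 0.72, and in 21 the groups did not overlap. Of 30 genes of endothelial activation, 16 rose and none fell, with a median of 1.26 (1.13 with Tnfaip2, which had no count in REPOP60, set to its lower bound). Vwf, the von Willebrand factor that endothelial cells store and release to bind platelets, had the smallest FDR of all genes (ENSMUSG00000001930, chr6:125546774-125686679, + strand). Its level was 70.1, 76.1, 72.9 and 36.6 CPM in LPSREPOP and 8.72, 9.03, 10.3 and 9.82 CPM in REPOP60. All challenged retinas were far above the unchallenged ones, and LPSREPOP replicate 4 lay apart from the other 3. The log2 fold change was 2.75 ± 0.16 (SE, edgeR FDR = 4.53e-11). Icam1, an adhesion molecule that leukocytes bind, was at 4.29, 7.86, 4.66 and 1.31 CPM in LPSREPOP and 0.268, 0.664, 0.398 and 0.273 CPM in REPOP60. Again no values overlapped, and the log2 fold change was 3.44 ± 0.47 (SE, edgeR FDR = 4.61e-05). Gm47079, which overlaps Icam1 on the opposite strand, also rose, by 1.48 on the log2 scale (edgeR FDR = 0.0315), and without strand the reads of both cannot be told apart. The other named activation genes rose as well, Tmem252 by 2.47 ± 0.39, Cd93 by 1.53 ± 0.24, Tagln2 by 1.28 ± 0.21 and the transglutaminase Tgm2 by 1.23 ± 0.17 (log2 fold change ± SE, edgeR FDR at most 0.000403).

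The selectins, which slow leukocytes on the vessel wall, were near the floor. Selp rose from 2 counts in all REPOP60 mice together to a summed level 14.7 times as high (counting interval 3.73 to 127), with a log2 fold change of 3.58 ± 0.85 (SE, edgeR FDR = 0.0154). Its call was lost without any 1 of REPOP60 replicates 1, 2, 3 and 4 or LPSREPOP replicates 1, 2 and 3 (edgeR FDR 0.0514 to 0.109). Sele was at 0.268, 0.262, 0.388 and 0 CPM in LPSREPOP and 0, 0, 0 and 0.273 CPM in REPOP60, did not pass the test (edgeR FDR = 0.526), and overlapped between the groups. The number of raised activation genes was 13, 12, 9 and 17 without LPSREPOP replicates 1 to 4 in turn and 10, 9, 9 and 8 without REPOP60 replicates 1 to 4, and 6 with the title series as a term.

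Among the identity and barrier genes, Cldn5, the claudin of endothelial tight junctions (ENSMUSG00000041378, chr16:18776847-18778262, + strand), was at 16.7, 23.7, 20.4 and 16.3 CPM in LPSREPOP and 6.58, 7.97, 6.23 and 6.41 CPM in REPOP60. The lowest challenged mouse had more than the highest unchallenged one, with a log2 fold change of 1.51 ± 0.14 (SE, edgeR FDR = 1.22e-07). Ly6c1 (1.85 ± 0.24), Tie1 (1.16 ± 0.16), Eng (1.04 ± 0.14), the organic anion transporter Slco1a4 (0.96 ± 0.14) and the efflux pump Abcb1a (0.91 ± 0.13) rose too, each without overlap (log2 fold change ± SE, edgeR FDR at most 0.000122). Ly6c1 has close paralogs, so that its reads may be split between copies. Pecam1, a junction protein of all endothelium, rose less, by 0.60 ± 0.12 (SE, edgeR FDR = 0.00493), and its call was lost without REPOP60 replicate 2 (edgeR FDR = 0.0533). Not every gene of the list moved. Kdr, the main VEGF receptor, had a log2 fold change of −0.13 (edgeR FDR = 0.450), and the junction scaffold Tjp1 one of −0.04 (edgeR FDR = 0.831). The summed level of the 30 genes was 1739 to 1931 CPM in LPSREPOP and 1486 to 1590.2 CPM in REPOP60. The count of raised genes was 16, 16, 14 and 18 without LPSREPOP replicates 1 to 4 in turn and 14, 13, 15 and 12 without REPOP60 replicates 1 to 4, and 10 with the title series as a term.

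**Figure D3:**
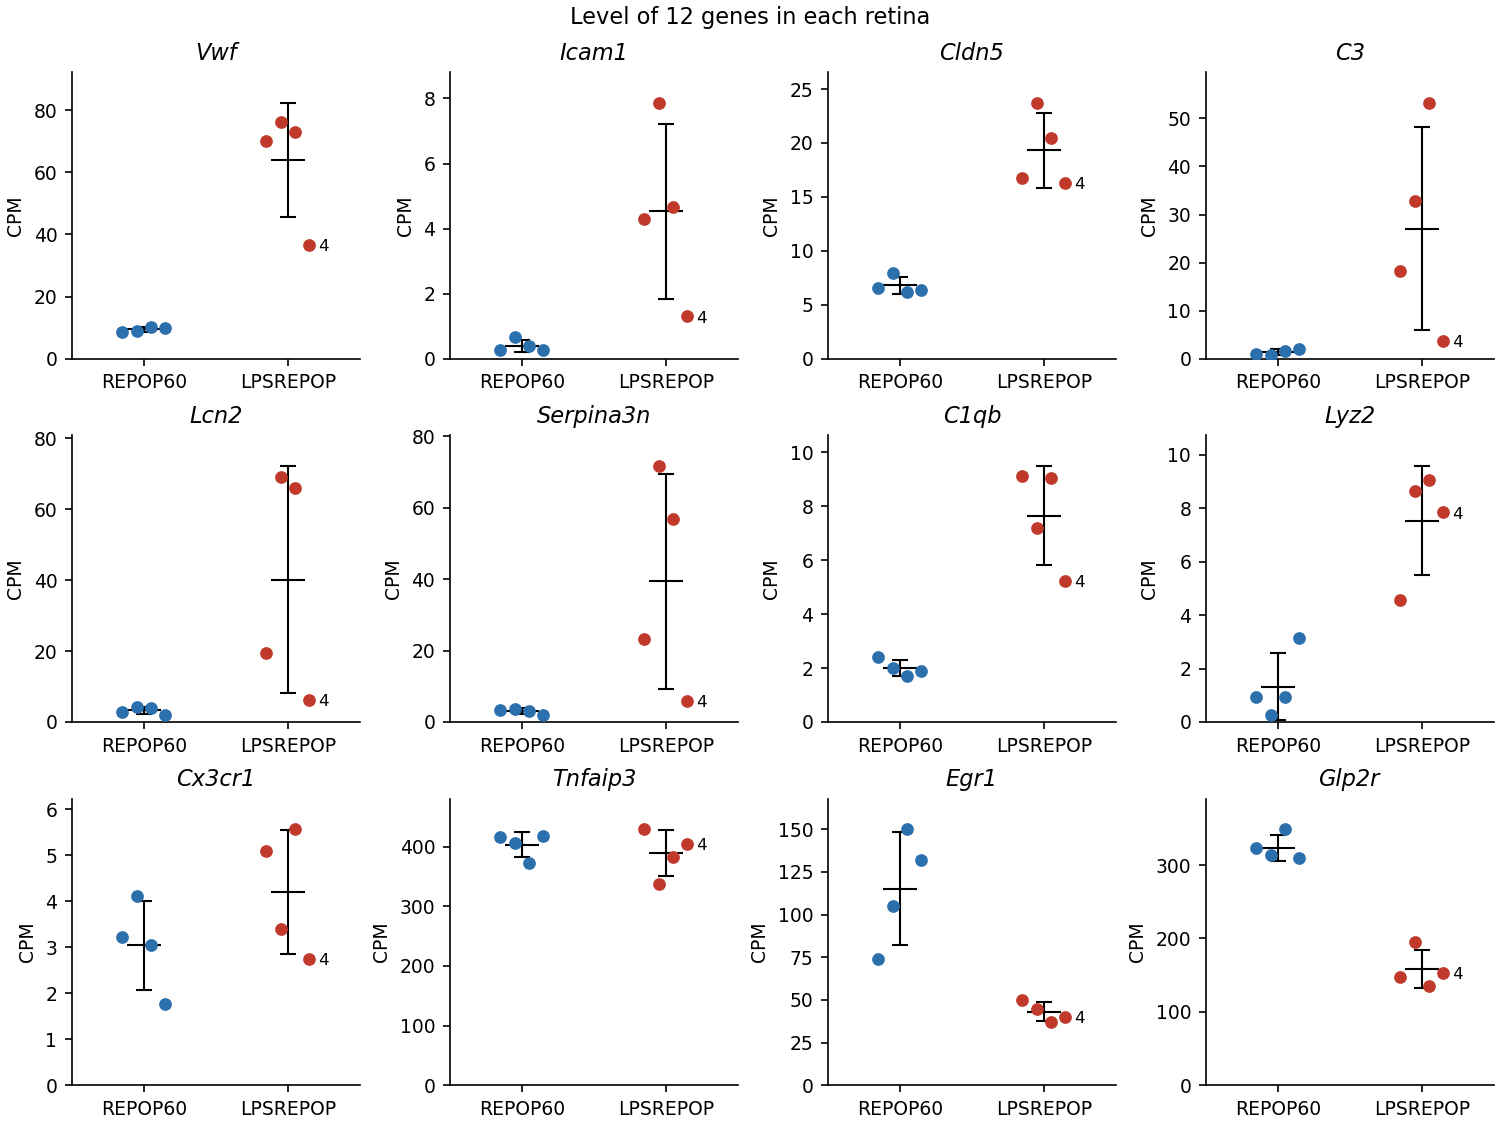
CPM of 12 genes in each mouse of LPSREPOP and REPOP60 (points, mice; bar, mean ± SD, n = 4), 1 panel per gene, with LPSREPOP replicate 4 numbered. Vwf, Icam1, Cldn5, C3, Lcn2, Serpina3n, C1qb and Lyz2 do not overlap between the groups and are higher in LPSREPOP, Cx3cr1 and Tnfaip3 overlap, and Egr1 and Glp2r are lower in LPSREPOP.

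Acute phase genes held several of the largest rises. Of 20 tested genes of this list, 8 rose and none fell, with a median log2 fold change of 0.68 (0.59 with the gene at 0 in REPOP60 at its bound). Saa3, a serum amyloid A protein made outside the liver (ENSMUSG00000040026, chr7:46711998-46715700, − strand), was at 6.30, 8.91, 13.8 and 1.44 CPM in LPSREPOP and at 0, 0.133, 0 and 0.273 CPM in REPOP60. It was close to absent without LPS and present in every challenged retina, at a summed level 76.1 times as high (counting interval 25.7 to 372, edgeR FDR = 4.52e-06). Lcn2, the siderophore-binding lipocalin, was at 19.6, 69.0, 65.9 and 6.14 CPM and at 2.95, 4.25, 3.85 and 2.05 CPM in the same order of groups. The log2 fold change was 3.61 ± 0.49 (SE, edgeR FDR = 4.10e-05). Serpina3n, a secreted protease inhibitor with close paralogs, reached 23.2, 71.7, 56.8 and 6.01 CPM, against 3.49, 3.59, 3.18 and 1.91 CPM in REPOP60. It rose by 3.69 ± 0.47 (SE, edgeR FDR = 2.12e-05) without overlap, as Lcn2 did, and in both genes LPSREPOP replicates 2 and 3 were highest and replicate 4 lowest.

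The metalloreductase Steap4 was at 2.14, 1.96, 10.9 and 1.44 CPM in LPSREPOP and 0.134, 0.531, 0.398 and 0.273 CPM in REPOP60. LPSREPOP replicate 3 stood far above the other 3, and the log2 fold change was 3.56 ± 0.64 (SE, edgeR FDR = 0.00125). Lrg1, a vascular glycoprotein, was at 6.03, 6.29, 2.59 and 0.392 CPM and 0.134, 0, 0.133 and 0.682 CPM. Its groups overlapped through LPSREPOP replicate 4 and REPOP60 replicate 4, and it rose by 3.93 ± 0.67 (SE, edgeR FDR = 0.000616). Chil1 overlapped in the same way, with 26.1, 57.9, 72.5 and 10.6 CPM against 12.7, 11.3, 12.7 and 10.9 CPM and a log2 fold change of 1.81 ± 0.32 (SE, edgeR FDR = 0.00100). A2m (1.52, edgeR FDR = 0.000454) and ceruloplasmin, Cp (0.58, edgeR FDR = 0.00112), rose as well. Calls were lost for Steap4 without REPOP60 replicate 4 (edgeR FDR = 0.0629), for Chil1 without REPOP60 replicate 4 (edgeR FDR = 0.0734) and for Cp without REPOP60 replicate 4 (edgeR FDR = 0.0528). The classical liver genes of the list behaved otherwise, with Hp at 0.76 (edgeR FDR = 0.748), Hpx at 0.61 (edgeR FDR = 0.657), Orm1 at −2.14 (edgeR FDR = 0.427) and Itih4 at −1.61 (edgeR FDR = 0.408) on the log2 scale, all under 1 CPM on average in both groups. The list had 8 raised genes without any 1 of the mice other than REPOP60 replicate 4, and 5 without that mouse. With the title series as a term it had 3.

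Complement genes rose over much of the cascade. Of 23 tested genes, 11 rose and 1 fell, with a median log2 fold change of 1.14. C3, the central component, was at 18.2, 32.9, 53.2 and 3.79 CPM in LPSREPOP and 1.07, 0.797, 1.72 and 2.05 CPM in REPOP60. Every challenged mouse was above every unchallenged one, over a wide range, and the log2 fold change was 4.25 ± 0.52 (SE, edgeR FDR = 1.14e-05). C4b rose by 2.22 ± 0.32 (SE, edgeR FDR = 9.97e-05), although its reads may be shared with its near-identical copy C4a, which had a log2 fold change of 0.26 (edgeR FDR = 0.673). The 3 chains of C1q, made by microglia in the central nervous system, rose together. C1qb (ENSMUSG00000036905, chr4:136880129-136886187, − strand) was at 9.11, 7.20, 9.06 and 5.23 CPM in LPSREPOP and 2.42, 1.99, 1.72 and 1.91 CPM in REPOP60. It rose by 1.92 ± 0.22 (SE, edgeR FDR = 3.43e-06) with no overlap, while C1qa rose by 1.34 ± 0.22 and C1qc by 1.34 ± 0.25. Regulators rose too, the C1 inhibitor Serping1 by 1.57 ± 0.24 and clusterin (Clu) by 0.56 ± 0.089 (log2 fold change ± SE, edgeR FDR at most 0.000307). Properdin (Cfp), which stabilises the alternative pathway convertase, fell by 0.34 on the log2 scale (edgeR FDR = 0.0417). That call was lost without any 1 of the mice other than LPSREPOP replicate 4. With single mice left out, the count of raised genes was 10, 11, 9 and 13 without LPSREPOP replicates 1 to 4 in turn and 10, 10, 9 and 8 without REPOP60 replicates 1 to 4, and 6 with the title series as a term, and the call of C1qc was lost without REPOP60 replicate 4 (edgeR FDR = 0.0563).

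Microglial genes divided into those that rose and those that did not. Of 30 microglia markers, 10 rose and none fell, with a median log2 fold change of 0.66. Besides the C1q chains, the protease Ctss rose by 1.16 ± 0.17 (SE, edgeR FDR = 0.000160), Laptm5 by 1.03 ± 0.20 (SE, edgeR FDR = 0.00255) and Csf1r, the receptor that PLX5622 blocks, by 0.58 ± 0.11 (SE, edgeR FDR = 0.00175). Csf1r was at 24.6, 22.3, 23.6 and 18.9 CPM in LPSREPOP and 12.9, 16.6, 15.8 and 14.5 CPM in REPOP60, with no overlap. The markers used most to identify resting microglia did not pass the test. Cx3cr1, the fractalkine receptor, was at 5.09, 3.41, 5.56 and 2.74 CPM and 3.22, 4.12, 3.05 and 1.77 CPM, a log2 fold change of 0.46 ± 0.25 (SE, edgeR FDR = 0.421). Tmem119 was at 2.41, 0.393, 2.33 and 0.915 CPM and 1.34, 1.86, 1.33 and 1.36 CPM, a log2 fold change of 0.035 ± 0.39 (SE, edgeR FDR = 0.993). P2ry12, a purinergic receptor of ramified microglia, was at 0.804, 0.131, 1.29 and 0.653 CPM and 1.21, 1.59, 1.06 and 0.273 CPM, a log2 fold change of −0.51 ± 0.49 (SE, edgeR FDR = 0.711). These 3 genes overlapped between the groups. The lowest counts in a mouse were 3 for Tmem119 and 1 for P2ry12, at or under the floor, and 13 for Cx3cr1. The summed level of the 30 markers was 149 to 208 CPM in LPSREPOP, 116 to 130.1 CPM in REPOP60 and 129.9 to 136 CPM in the 2 CD mice, and none of the 30 was at 0 in a whole group. The count of raised markers was 8, 10, 7 and 11 without LPSREPOP replicates 1 to 4 in turn and 8, 8, 7 and 6 without REPOP60 replicates 1 to 4, and 3 with the title series as a term.

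Of 29 tested genes of microglial activation, 6 rose and none fell, with a median log2 fold change of 0.85. Lyz2, lysozyme of myeloid cells, was at 4.55, 8.65, 9.06 and 7.84 CPM in LPSREPOP and 0.939, 0.266, 0.928 and 3.14 CPM in REPOP60. It was higher in all challenged mice by 2.51 ± 0.33 (SE, edgeR FDR = 2.89e-05), and LPSREPOP replicate 1, not replicate 4, was the lowest of them. Cybb, the catalytic subunit of the phagocyte oxidase, was also even across the challenged mice, with 2.28, 2.10, 2.72 and 2.35 CPM against 0.268, 0.133, 0.530 and 0.955 CPM. Its log2 fold change was 2.29 ± 0.39 (SE, edgeR FDR = 0.000653). The integrin subunit Itgb2 rose by 2.51 ± 0.41 (SE, edgeR FDR = 0.000453). The receptor tyrosine kinase Axl (0.52), tetherin, Bst2 (1.38), and the lysosomal protein Cd68 (1.22) rose with an edgeR FDR of 0.0116, 0.0142 and 0.0333. These 3 calls rested on the whole set of mice, being lost for Axl without any 1 of REPOP60 replicates 1, 2, 3 and 4 or LPSREPOP replicates 2 and 3 (edgeR FDR 0.0515 to 0.110), for Bst2 without any 1 of REPOP60 replicates 1, 2 and 4 or LPSREPOP replicate 3 (edgeR FDR 0.0575 to 0.143) and for Cd68 without any 1 of REPOP60 replicates 1, 2, 3 and 4 or LPSREPOP replicates 1 and 3 (edgeR FDR 0.0712 to 0.238). Of other activation genes, picked as contrast after their values were seen, Apoe was at 0.10 (edgeR FDR = 0.440), Lpl at −0.089 (edgeR FDR = 0.788) and Spp1 at −0.27 (edgeR FDR = 0.398) on the log2 scale. The number of raised activation genes was 5, 5, 3 and 8 without LPSREPOP replicates 1 to 4 in turn and 3, 3, 4 and 3 without REPOP60 replicates 1 to 4, and 3 with the title series as a term.

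Markers of blood leukocytes were low throughout. Of 14 tested neutrophil genes, 5 rose, with a median log2 fold change of 2.37 (1.52 with genes at 0 in a whole group at their bounds), and the 5 include Lcn2, which other cells also make. S100a8, a subunit of calprotectin, was at 1.47, 0.262, 2.85 and 0.261 CPM in LPSREPOP and had no count in any REPOP60 mouse. Set against the floor of 3 counts per library, its mean was at least 3.01-fold higher in LPSREPOP (edgeR FDR = 0.00525). Its partner S100a9 was at 2.14, 0.786, 5.56 and 0.523 CPM and 0.268, 0, 0.265 and 0 CPM and rose by 3.92 ± 0.78 (SE, edgeR FDR = 0.00337). Ngp, a neutrophil granule protein, was at 1.74, 0.131, 2.46 and 0.392 CPM against 3 counts in all REPOP60 mice together, a ratio of 11.8 (counting interval 3.71 to 59.7, edgeR FDR = 0.0242), and Csf3r rose by 1.46 ± 0.41 (SE, edgeR FDR = 0.0465). In these 4 genes LPSREPOP replicates 1 and 3 were highest, unlike in Lcn2, Serpina3n and C3, in which replicates 2 and 3 led. The neutrophil marker Ly6g had no count in any LPSREPOP mouse. The summed level of the 15 listed genes was 49.7, 88.3, 106 and 28.4 CPM in LPSREPOP and 21.6 to 26.4 CPM in REPOP60. Lcn2 alone made up 19.6, 69.0, 65.9 and 6.14 CPM of it in LPSREPOP and 2.95, 4.25, 3.85 and 2.05 CPM in REPOP60. The sum is thus no measure of neutrophils alone. Calls were lost for S100a8 without any 1 of REPOP60 replicates 1, 2, 3 and 4 or LPSREPOP replicate 3 (edgeR FDR 0.0506 to 0.0921), for S100a9 without any 1 of REPOP60 replicates 2 and 4 or LPSREPOP replicate 3 (edgeR FDR 0.0558 to 0.0933), for Ngp without any 1 of REPOP60 replicates 1, 2, 3 and 4 or LPSREPOP replicates 1 and 3 (edgeR FDR 0.0739 to 0.207) and for Csf3r without any 1 of REPOP60 replicates 1, 2, 3 and 4 or LPSREPOP replicates 1 and 3 (edgeR FDR 0.160 to 0.309).

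Of 15 tested genes of monocytes and perivascular macrophages, 3 rose and none fell, with a median log2 fold change of 0.68 (0.46 with genes at 0 at their bounds). Fibronectin, Fn1, which vessels and fibroblasts make as well, was at 105, 122, 139 and 113 CPM in LPSREPOP and 67.2, 63.7, 71.9 and 64.9 CPM in REPOP60. The groups were far apart for their spread, with a log2 fold change of 0.84 ± 0.073 (SE, edgeR FDR = 4.67e-08). The scavenger receptor Stab1 rose by 0.96 ± 0.18 (SE, edgeR FDR = 0.00163). F13a1, a coagulation factor subunit of macrophages, was at 0.268, 0.786, 1.68 and 0 CPM and had no count in REPOP60, so that its mean was at least 1.70-fold higher (edgeR FDR = 0.0299), a call lost without any 1 of REPOP60 replicates 1, 2, 3 and 4 or LPSREPOP replicates 1, 2 and 3 (edgeR FDR 0.0521 to 0.205). With single mice left out, the count of raised genes was 2, 2, 2 and 4 without LPSREPOP replicates 1 to 4 in turn and 2, 2, 2 and 2 without REPOP60 replicates 1 to 4, and 1 with the title series as a term. Of 9 tested lymphocyte genes, 1 rose, the integrin Itgal, by 1.80 ± 0.39 (SE, edgeR FDR = 0.00860), a call lost without any 1 of REPOP60 replicates 1 and 2 or LPSREPOP replicate 3 (edgeR FDR 0.0514 to 0.0666). With the title series as a term no lymphocyte gene passed. Cd3e, Cd3d and Ms4a1, which define T and B cells, had no count in either group. Rac2, a GTPase of blood cells outside these lists, was at 1.61, 0.917, 2.33 and 0.392 CPM against 0.268, 0.133, 0.133 and 0 CPM and rose by 3.14 ± 0.66 (SE, edgeR FDR = 0.00604), with the call lost without any 1 of REPOP60 replicates 3 and 4 or LPSREPOP replicate 3 (edgeR FDR 0.0503 to 0.0794).

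The genes that sense LPS and pass on the NF-kB signal changed little. Of 32 tested, 3 rose and 1 fell, with a median log2 fold change of 0.056. The co-receptor Cd14 was at 1.34, 1.83, 1.55 and 0.523 CPM in LPSREPOP and 1.07, 1.46, 1.59 and 1.23 CPM in REPOP60, a log2 fold change of −0.028 ± 0.35 (SE, edgeR FDR = 0.993). The feedback inhibitors of NF-kB were also level. Nfkbia was at 24.6, 26.9, 26.01 and 20.5 CPM and 24.3, 27.1, 22.8 and 24.4 CPM, with a log2 fold change of −0.0074 ± 0.10 (SE, edgeR FDR = 0.993). Tnfaip3 was at 429, 338, 383 and 405 CPM and 416, 406, 373 and 419 CPM, with a log2 fold change of −0.051 ± 0.061 (SE, edgeR FDR = 0.774). The error of the difference is small for Tnfaip3 and wide for Cd14, which was near the floor. The genes that rose were Tnfaip2, at 0.670, 1.05, 0.647 and 0.523 CPM with no count in REPOP60 (at least 1.80-fold higher, edgeR FDR = 0.00309), the peptidoglycan receptor Pglyrp1 (log2 fold change 1.98 ± 0.40, SE, edgeR FDR = 0.00368) and the signal inhibitor Irak3 (log2 fold change 1.40 ± 0.39, SE, edgeR FDR = 0.0491). Ikbkg, the regulatory subunit of the IKK complex, fell by 0.32 ± 0.065 on the log2 scale (SE, edgeR FDR = 0.00484), from 65.9, 69.6, 71.9 and 64.9 CPM to 55.7, 54.8, 50.7 and 57.2 CPM. It overlaps G6pdx on the opposite strand, and without strand their reads cannot be told apart. Calls were lost for Pglyrp1 without REPOP60 replicate 4 (edgeR FDR = 0.0756) and for Irak3 without any 1 of REPOP60 replicates 1, 2, 3 and 4 or LPSREPOP replicates 1, 2 and 3 (edgeR FDR 0.0568 to 0.262).

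Cytokine transcripts were mostly at or under the floor. Of 37 listed cytokines and chemokines, 22 could be tested and 1 rose, Il33, an alarmin stored in nuclei of glia and endothelium. Il33 was at 50.2, 52.5, 41.7 and 37.5 CPM in LPSREPOP and 32.9, 32.7, 29.97 and 32.3 CPM in REPOP60. No mouse of one group reached the other, and the log2 fold change was 0.51 ± 0.091 (SE, edgeR FDR = 0.00119). With the title series as a term this call was lost. The chemokine Cxcl10 was at 0.268, 0, 0 and 0.131 CPM and had no count in REPOP60, both at or under the floor. Il10, Il12b, Osm, Ifnb1, Cxcl1, Cxcl2 and Cxcl9 had no count in any of the 8 mice, so that a level under the floor would not have been detectable at this depth. The median log2 fold change of the tested genes was 0.51 (0.22 with genes at 0 at their bounds).

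Downstream of cytokine receptors, 4 of 28 genes rose and 1 fell, with a median log2 fold change of 0.31. Socs3, the feedback inhibitor that STAT3 induces, was at 4.69, 11.7, 6.73 and 5.75 CPM in LPSREPOP and 4.03, 3.85, 3.58 and 4.09 CPM in REPOP60. Its groups did not overlap, and the log2 fold change of 0.89 ± 0.22 (SE, edgeR FDR = 0.0253) became 0.56 without LPSREPOP replicate 2. Stat3 itself rose by 0.30 ± 0.083 (SE, edgeR FDR = 0.0428), Cebpd by 0.96 ± 0.26 (SE, edgeR FDR = 0.0368) (0.52 without LPSREPOP replicate 2) and the TNF receptor Tnfrsf1a by 0.81 ± 0.20 (SE, edgeR FDR = 0.0200). Single mice decided all 4 calls, which were lost for Socs3 without any 1 of REPOP60 replicates 1, 2, 3 and 4 or LPSREPOP replicates 2 and 3 (edgeR FDR 0.0846 to 0.151), for Stat3 without any 1 of REPOP60 replicates 1, 2, 3 and 4 or LPSREPOP replicates 1, 2 and 3 (edgeR FDR 0.0522 to 0.245), for Cebpd without any 1 of REPOP60 replicates 1, 2, 3 and 4 or LPSREPOP replicates 1, 2 and 3 (edgeR FDR 0.0541 to 0.232) and for Tnfrsf1a without any 1 of REPOP60 replicates 1, 2, 3 and 4 or LPSREPOP replicates 2 and 3 (edgeR FDR 0.0510 to 0.168).

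Interferon-stimulated genes showed no broad shift in calls. Of 41 tested, 3 rose and none fell, with a median log2 fold change of 0.35. Ifitm3, an antiviral membrane protein, was at 7.10, 13.9, 11.9 and 3.79 CPM in LPSREPOP and 2.68, 1.46, 2.52 and 3.41 CPM in REPOP60. It rose by 1.86 ± 0.30 (SE, edgeR FDR = 0.000342) with no overlap. Irf7, a transcription factor of the pathway, was at 22.1, 54.9, 28.7 and 16.9 CPM and 13.4, 15.4, 19.1 and 15.3 CPM. LPSREPOP replicate 2 was the highest, and the log2 fold change of 0.96 ± 0.22 (SE, edgeR FDR = 0.0121) was 0.51 without it. Bst2 was the other raised gene. The count was 3, 4, 1 and 6 without LPSREPOP replicates 1 to 4 in turn and 1, 1, 2 and 1 without REPOP60 replicates 1 to 4, and 0 with the title series as a term, and the call of Irf7 was lost without any 1 of REPOP60 replicates 1, 2, 3 and 4 or LPSREPOP replicate 3 (edgeR FDR 0.0621 to 0.175).

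Class I antigen presentation rose in its most abundant members. Of 25 genes of MHC and antigen presentation, 4 rose and none fell, with a median log2 fold change of 0.27. B2m, the light chain of class I molecules, was at 43.7, 38.5, 50.2 and 27.6 CPM in LPSREPOP and 21.1, 17.4, 18.8 and 20.7 CPM in REPOP60. The heavy chain H2-K1 was at 25.9, 36.4, 35.1 and 20.6 CPM and 12.1, 14.6, 14.3 and 12.7 CPM. Neither gene overlapped between the groups, and the log2 fold changes were 1.04 ± 0.12 (SE, edgeR FDR = 9.68e-06) and 1.14 ± 0.14 (SE, edgeR FDR = 1.05e-05). H2-D1 rose by 0.65 ± 0.11 (SE, edgeR FDR = 0.000867) and H2-Q4 by 1.14 ± 0.20 (SE, edgeR FDR = 0.000985). The heavy chain genes are near-identical copies, so that reads may be split among H2-K1, H2-D1 and H2-Q4. The class II genes did not pass the test, with Cd74 at −0.43 (edgeR FDR = 0.634), H2-Ab1 at −0.32 (edgeR FDR = 0.777) and the transactivator Ciita at −0.77 (edgeR FDR = 0.294) on the log2 scale. Those 4 calls stayed when any 1 mouse was left out.

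Genes of reactive astrocytes rose in part. Of 13 genes shared by reactive states, 7 rose and none fell, with a median log2 fold change of 0.95 (0.91 with Cxcl10 at its bound), and 3 of the 7 are Lcn2, Serpina3n and Steap4, described above. Vim, the intermediate filament vimentin, was at 140.1, 161, 165 and 127 CPM in LPSREPOP and 89.4, 86.6, 88.3 and 91.9 CPM in REPOP60. It rose in every challenged mouse by a similar amount, with a log2 fold change of 0.74 ± 0.069 (SE, edgeR FDR = 1.46e-07). Gfap, the filament of astrocytes and of stressed Müller glia, was at 7.10, 36.5, 26.9 and 11.8 CPM and 7.65, 8.23, 11.7 and 11.6 CPM. Only LPSREPOP replicates 2 and 3 stood clearly above REPOP60, and the log2 fold change was 1.08 ± 0.29 (SE, edgeR FDR = 0.0410). It was 0.65 without LPSREPOP replicate 2, and the call was lost without any 1 of REPOP60 replicates 1, 2, 3 and 4 or LPSREPOP replicates 2 and 3 (edgeR FDR 0.149 to 0.257). S1pr3, a sphingosine phosphate receptor, rose by 0.47 ± 0.093 (SE, edgeR FDR = 0.00312). Of 11 genes of the LPS type of astrocyte, 3 rose (H2-D1, Fkbp5 and Serping1), and of 11 genes of the ischaemia type none passed and none fell, with medians of 0.65 and 0.51. The number of raised shared genes was 7, 6, 6 and 8 without LPSREPOP replicates 1 to 4 in turn and 6, 6, 6 and 4 without REPOP60 replicates 1 to 4, and 3 with the title series as a term.

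Müller glia genes changed in both directions. Of 20, 5 rose and 1 fell, with a median log2 fold change of 0.092. The Notch target Hes1 was at 16.7, 18.6, 21.6 and 19.9 CPM in LPSREPOP and 11.1, 13.8, 8.49 and 11.6 CPM in REPOP60. It rose by 0.77 ± 0.13 (SE, edgeR FDR = 0.000460) without overlap. Besides Vim and Clu, the acyl-CoA ligase Acsl3 rose by 0.33 ± 0.065 (SE, edgeR FDR = 0.00262) and the carbonic anhydrase Car14 by 0.26 ± 0.071 (SE, edgeR FDR = 0.0422), the last call being lost without any 1 of REPOP60 replicates 1, 3 and 4 or LPSREPOP replicates 1, 2 and 3 (edgeR FDR 0.0634 to 0.206). Rlbp1, the retinaldehyde-binding protein of Müller glia and pigment epithelium, was at 201, 143, 197 and 274 CPM and 306, 307, 301 and 298 CPM. Its log2 fold change was −0.57 ± 0.10 (SE, edgeR FDR = 0.00112), and LPSREPOP replicate 4 was closest to REPOP60. With the title series as a term this call was lost. Glutamine synthetase, Glul, the most used Müller marker, had a log2 fold change of 0.14 ± 0.05 (SE, edgeR FDR = 0.155) and did not pass. The summed level of the 20 genes was 5750.5 to 5976 CPM in LPSREPOP and 5324 to 5441 CPM in REPOP60.

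Genes of fibroblasts and meninges rose, and a few of mural cells. Of 18 tested fibroblast and meningeal genes, 9 rose and none fell, with a median log2 fold change of 0.78. Fmod, the collagen-binding fibromodulin, was at 10.7, 17.2, 18.2 and 7.19 CPM in LPSREPOP and 4.03, 4.38, 2.65 and 4.91 CPM in REPOP60. It rose in all challenged mice, by 1.74 ± 0.23 (SE, edgeR FDR = 3.70e-05). Fbln1, the matrix protein fibulin, was at 10.05, 25.0, 29.0 and 1.31 CPM and 1.48, 0.929, 2.12 and 2.05 CPM. Here LPSREPOP replicate 4 was within the range of REPOP60 while replicates 2 and 3 were more than 10 times as high as every unchallenged mouse, and the log2 fold change was 3.31 ± 0.52 (SE, edgeR FDR = 0.000284). Penk, the proenkephalin gene that neurons also use, was at 13.3, 37.2, 33.5 and 4.44 CPM and 4.29, 5.05, 5.17 and 4.09 CPM. LPSREPOP replicate 4 was again within the range of REPOP60, with a log2 fold change of 2.25 ± 0.37 (SE, edgeR FDR = 0.000529). The anion transporter Slc13a4 (2.72), apolipoprotein D, Apod (1.64), and Igf2 (0.36) rose with an edgeR FDR of 0.000263, 0.00477 and 0.00318. Calls were lost for Penk without REPOP60 replicate 4 (edgeR FDR = 0.0525) and for Apod without REPOP60 replicate 3 (edgeR FDR = 0.0510). The count was 8, 8, 6 and 9 without LPSREPOP replicates 1 to 4 in turn and 6, 6, 5 and 5 without REPOP60 replicates 1 to 4, and 2 with the title series as a term. How much connective tissue at the rim or the optic nerve head each dissection held was not measured, and its part in these values was not tested.

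Of 15 mural cell genes, 3 rose and none fell, with a median of 0.54. Their summed level overlapped between the groups, at 780 to 911 CPM in LPSREPOP and 844 to 910 CPM in REPOP60. Rgs5, a pericyte regulator of G protein signalling, was at 79.3, 69.8, 70.4 and 71.4 CPM in LPSREPOP and 44.8, 42.1, 53.6 and 54.1 CPM in REPOP60. It rose evenly in all challenged mice, by 0.58 ± 0.077 (SE, edgeR FDR = 3.42e-05). Mcam rose by 1.14 ± 0.19 (SE, edgeR FDR = 0.000416) and the smooth muscle myosin Myh11 by 0.87 ± 0.23 (SE, edgeR FDR = 0.0333), the latter call being lost without any 1 of REPOP60 replicates 1, 2, 3 and 4 or LPSREPOP replicates 1, 2 and 3 (edgeR FDR 0.0520 to 0.190). Pdgfrb, the receptor that defines pericytes, had a log2 fold change of 0.27 ± 0.093 (SE, edgeR FDR = 0.135). The count was 3, 2, 2 and 4 without LPSREPOP replicates 1 to 4 in turn and 2, 2, 2 and 2 without REPOP60 replicates 1 to 4, and 2 with the title series as a term.

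Metal-binding and redox genes rose, with 7 of 22 higher and none lower, and a median log2 fold change of 0.25. The metallothioneins Mt1 and Mt2, which bind zinc and copper, were at 43.4, 58.3, 40.4 and 33.7 CPM and 22.4, 27.2, 20.7 and 14.2 CPM in LPSREPOP. In REPOP60 they were at 19.6, 18.9, 22.9 and 23.2 CPM and 7.92, 8.23, 10.2 and 9.27 CPM. Neither overlapped, and they rose by 1.06 ± 0.12 (SE, edgeR FDR = 4.52e-06) and 1.25 ± 0.15 (SE, edgeR FDR = 1.08e-05). Gpx3, the secreted glutathione peroxidase, was at 53.6, 127, 163 and 8.49 CPM in LPSREPOP and 4.96, 4.12, 5.17 and 5.05 CPM in REPOP60. It had one of the largest changes, with a log2 fold change of 4.19 ± 0.52 (SE, edgeR FDR = 1.14e-05), and LPSREPOP replicate 4 was only just above the unchallenged mice. Selenbp1, a selenium-binding protein, was at 46.8, 72.3, 39.6 and 16.9 CPM and 4.83, 4.91, 7.56 and 5.73 CPM. All challenged mice were clearly above the others, and it rose by 2.93 ± 0.28 (SE, edgeR FDR = 1.84e-07). The ferritin chains Fth1 (0.31) and Ftl1 (0.39) rose with an edgeR FDR of 0.00100 and 0.00261.

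Of the 15 largest rises, 4 belong to no list, among them Rac2, described above. E230001N04Rik was at 6.43, 11.1, 5.56 and 1.57 CPM in LPSREPOP and 0.134, 0.398, 0.663 and 0.682 CPM in REPOP60. It was above the unchallenged range in every challenged mouse, by 3.67 ± 0.48 (SE, edgeR FDR = 2.89e-05), and it overlaps Gm20109 on the opposite strand, whose reads cannot be told apart without strand. Tgfbi, a secreted matrix protein, was at 2.01, 3.80, 4.27 and 1.31 CPM and 0.268, 0.266, 0.796 and 0.545 CPM. Its groups did not overlap either, and it rose by 2.56 ± 0.43 (SE, edgeR FDR = 0.000532). Gm43343 was at 0.670, 1.70, 1.42 and 1.05 CPM and 0.134, 0.133, 0.265 and 0.136 CPM. It rose by 2.74 ± 0.55 (SE, edgeR FDR = 0.00372), from 1 or 2 reads per REPOP60 mouse. In the CD mice, also unchallenged, it was at 1.45 and 0.945 CPM, within the range of LPSREPOP, so that REPOP60 was the group apart. It lies within Apbb2 on the same strand, whose log2 fold change was −0.018 (edgeR FDR = 0.939).

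Glucocorticoid-responsive genes were split. Of 24 tested, 6 rose and 1 fell, with a median log2 fold change of 0.17. Fkbp5, a chaperone that dampens the glucocorticoid receptor, was at 43.7, 60.3, 37.9 and 25.4 CPM in LPSREPOP and 23.2, 22.04, 25.3 and 21.95 CPM in REPOP60. It rose by 0.85 ± 0.15 (SE, edgeR FDR = 0.00112), as did Fam107a by 1.09 ± 0.18 (SE, edgeR FDR = 0.000403). Plin4, a lipid droplet protein, was at 3.62, 13.6, 2.98 and 1.57 CPM and 1.21, 1.46, 1.59 and 1.23 CPM. It rose by 1.98 ± 0.47 (SE, edgeR FDR = 0.0154), of which 0.97 remained without LPSREPOP replicate 2. Map3k6 and Hif3a rose by 1.80 and 0.82 on the log2 scale (edgeR FDR = 0.0105 and 0.0164). Tsc22d3 and Sgk1, well-known targets of the receptor, did not pass, with the first at −0.024 ± 0.11 and the second at 0.12 ± 0.056 (log2 fold change ± SE, edgeR FDR = 0.94996 and 0.327). Tob2 fell, with a log2 fold change of −0.29 ± 0.052 (SE, edgeR FDR = 0.00113). The count of raised genes was 2, 2, 3 and 6 without LPSREPOP replicates 1 to 4 in turn and 2, 2, 2 and 1 without REPOP60 replicates 1 to 4, and 0 with the title series as a term. Calls were lost for Fkbp5 without REPOP60 replicate 4 (edgeR FDR = 0.0603), for Plin4 without any 1 of REPOP60 replicates 1, 2, 3 and 4 or LPSREPOP replicates 1 and 2 (edgeR FDR 0.0522 to 0.186), for Map3k6 without any 1 of REPOP60 replicates 1, 2, 3 and 4 or LPSREPOP replicates 1, 2 and 3 (edgeR FDR 0.0514 to 0.0964) and for Hif3a without any 1 of REPOP60 replicates 1, 2, 3 and 4 or LPSREPOP replicates 1, 2 and 3 (edgeR FDR 0.0648 to 0.180).

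**Figure D4:**
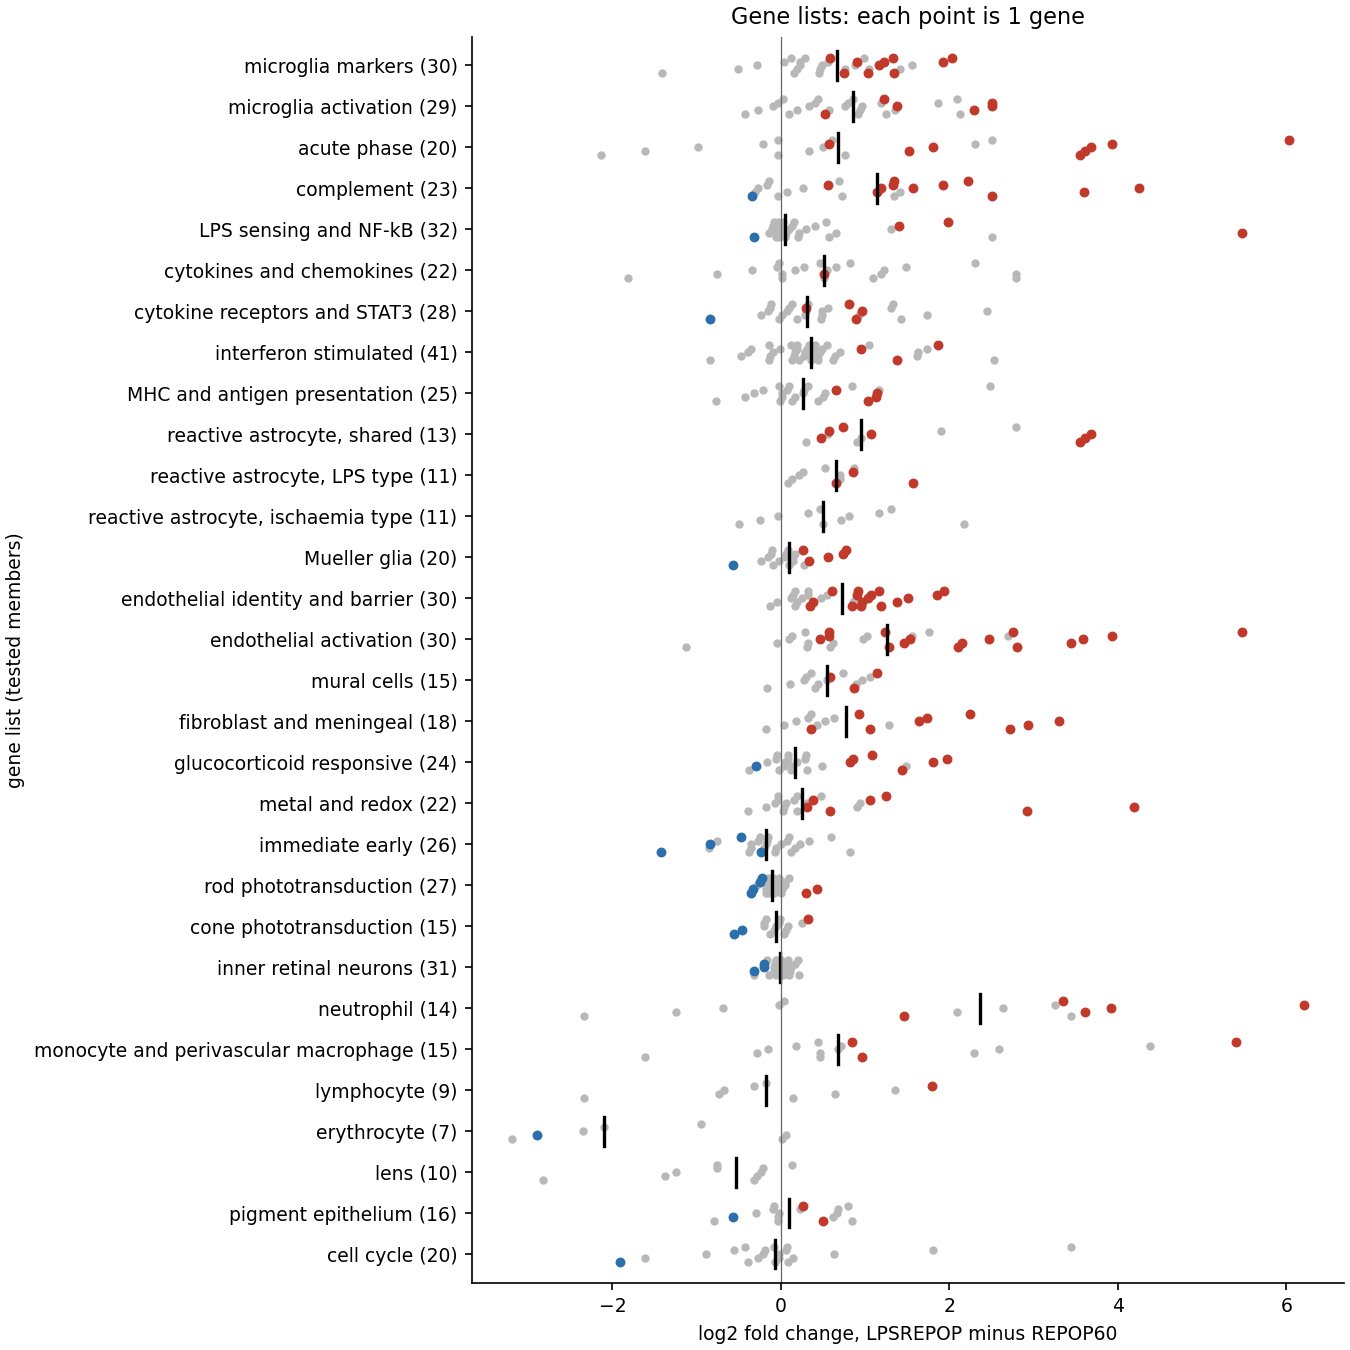
Log2 fold change of LPSREPOP against REPOP60 for the tested genes of each of the 30 lists (points, genes; red and blue, genes higher and lower at an edgeR FDR under 0.05; black bar, median of the list). Endothelial, complement, acute phase and neutrophil lists have medians to the right of 0, photoreceptor and neuron lists are narrow around 0, and the immediate early list has its 4 called genes on the left.

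Among immediate early genes, which neurons and glia switch on within minutes of stimulation, 4 had lower levels after LPS. Of 26 tested, none rose and 4 fell, with a median log2 fold change of −0.17. Egr1 was at 49.8, 44.9, 37.3 and 40.1 CPM in LPSREPOP and 73.7, 105, 149.996 and 132 CPM in REPOP60. The groups did not overlap, the spread lay mainly in REPOP60, and the log2 fold change was −1.42 ± 0.13 (SE, edgeR FDR = 1.46e-07). In the CD mice Egr1 was at 72.1 and 75.6 CPM, near the lowest REPOP60 mouse, and in LPSCD at 63.3, 43.6 and 35.8 CPM. Fos was at 24.2, 26.7, 19.3 and 22.2 CPM and 28.4, 37.4, 49.1 and 50.9 CPM. It fell by a similar pattern, with a log2 fold change of −0.84 ± 0.13 (SE, edgeR FDR = 0.000246). Nr4a1 (−0.47, edgeR FDR = 0.0328) and Btg2 (−0.23, edgeR FDR = 0.0315) fell too. Within the title series, Egr1 differed by −1.63 among mice numbered from 0 and by −1.09 among those numbered from 1 (difference in log2(CPM + 1)), whereas Nr4a1 differed by −0.90 and 0.023. The summed level of the list was 460.3 to 530.1 CPM in LPSREPOP and 494 to 720.4 CPM in REPOP60. In the fit of all 16 groups Egr1 and Fos did not pass. The count of fallen genes was 2, 4, 2 and 3 without LPSREPOP replicates 1 to 4 in turn and 5, 3, 2 and 2 without REPOP60 replicates 1 to 4, and 2 with the title series as a term, and calls were lost for Nr4a1 without any 1 of REPOP60 replicates 3 and 4 or LPSREPOP replicates 1, 3 and 4 (edgeR FDR 0.101 to 0.325) and for Btg2 without any 1 of REPOP60 replicates 2, 3 and 4 or LPSREPOP replicates 1 and 3 (edgeR FDR 0.0823 to 0.153).

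The other DEGs that fell belong to no common list. Kif4, a mitotic kinesin (ENSMUSG00000034311, chrX:100625737-100727214, + strand), was at 3.75, 4.85, 3.62 and 8.23 CPM in LPSREPOP and 17.8, 19.8, 20.8 and 18.4 CPM in REPOP60. It was lower in all challenged mice, with a log2 fold change of −1.90 ± 0.17 (SE, edgeR FDR = 6.31e-08), and it was the only one of 20 cell cycle genes that passed, among a median of −0.072. Kif4 overlaps Pdzd11 on the opposite strand, whose log2 fold change was −0.12 (edgeR FDR = 0.628). Glp2r, the receptor of glucagon-like peptide 2 (ENSMUSG00000049928, chr11:67661502-67771153, − strand), was at 147, 195, 135 and 153 CPM and 323, 313, 349 and 309 CPM. Its log2 fold change was −1.03 ± 0.076 (SE, edgeR FDR = 3.01e-09). It overlaps the photoreceptor gene Rcvrn (−0.031, edgeR FDR = 0.900) and Gas7 (−0.32, edgeR FDR = 0.0971) on the opposite strand, and without strand their reads cannot be told apart. Gm5466, for which near-identical copies may share reads, fell evenly from 31.5, 30.7, 32.8 and 26.3 CPM to 10.2, 13.9, 9.58 and 12.5 CPM, with a log2 fold change of −1.39 ± 0.11 (SE, edgeR FDR = 1.82e-08). Zfp957 (−2.60), A930031H19Rik (−1.99), the coagulation factor F11 (−1.47), the relaxin family gene Insl5 (−1.05) and Casc1 (−1.03) fell with an edgeR FDR of at most 0.00669, at levels between 0.129 and 10.1 CPM. The call of A930031H19Rik was lost without any 1 of REPOP60 replicates 1 and 2 (edgeR FDR 0.0568 to 0.0573). In the fit of all 16 groups 66 DEGs were called, of which 1 was lower. The CD means of Kif4, Glp2r, Gm5466, Zfp957, A930031H19Rik, F11, Insl5 and Casc1 were 13.7, 266, 23.1, 1.14, 1.86, 2.54, 7.87 and 5.81 CPM. Their REPOP60 means were 19.2, 324, 30.3, 1.88, 2.01, 4.32, 9.44 and 8.23 CPM. For each of these genes the CD mean lay between the means of LPSREPOP and REPOP60.

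Hbb-bs, a beta globin chain, fell as well. It was at 0, 0.393, 0 and 0.915 CPM in LPSREPOP and 1.34, 2.52, 2.79 and 3.55 CPM in REPOP60, without overlap, and its log2 fold change was −2.89 ± 0.51 (SE, edgeR FDR = 0.00108). Of 7 tested erythrocyte genes it was the only one called, with a median of −2.10 over the list. Without LPSREPOP replicate 4, 3 were called, and none with the title series as a term. The summed level of the listed genes was 56.1 to 58.0 CPM in LPSREPOP and 59.0 to 61.5 CPM in REPOP60. Globin genes are near-identical copies that may share reads. The blood left in each retina was not measured, and its part in these values was not tested. No lens gene of 10 passed. Of 16 pigment epithelium genes, Ezr (0.51, edgeR FDR = 0.0431) and Enpp2 (0.26, edgeR FDR = 0.0466) rose and Rlbp1 fell. Calls were lost for Ezr without any 1 of REPOP60 replicates 1, 2, 3 and 4 or LPSREPOP replicates 1, 2 and 3 (edgeR FDR 0.0592 to 0.183) and for Enpp2 without any 1 of REPOP60 replicates 1, 2, 3 and 4 or LPSREPOP replicates 1, 2 and 3 (edgeR FDR 0.0660 to 0.210). With the title series as a term no gene of the pigment epithelium list passed, Rlbp1 included. Rpe65, the defining isomerase of these cells, had a log2 fold change of 0.80 (edgeR FDR = 0.503).

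Photoreceptor and neuron genes changed by small amounts. Of 27 rod genes, 2 rose and 4 fell, with a median log2 fold change of −0.10. Their summed level was lower without overlap, at 72403 to 87613 CPM in LPSREPOP and 88759 to 89939 CPM in REPOP60. Nr2e3, a transcription factor that keeps rod identity, was at 670.2, 633, 588 and 692 CPM in LPSREPOP and 534, 449, 465 and 475 CPM in REPOP60. It rose by 0.43 ± 0.059 (SE, edgeR FDR = 5.77e-05) with no overlap, and the guanylate cyclase activator Guca1a rose by 0.30 ± 0.055 (SE, edgeR FDR = 0.00171). The anchor protein of the RGS9 complex, Rgs9bp, was at 954, 770.4, 892 and 965 CPM and 1160.5, 1119.8, 1152 and 1139 CPM. It fell, with a log2 fold change of −0.35 ± 0.058 (SE, edgeR FDR = 0.000456). Gucy2f (−0.33), the receptor kinase Grk1 (−0.24) and Rp1 (−0.22) fell with an edgeR FDR between 0.0333 and 0.0488. The number of rod genes that fell was 4, 1, 1 and 8 without LPSREPOP replicates 1 to 4 in turn and 1, 1, 1 and 1 without REPOP60 replicates 1 to 4, and 1 with the title series as a term.

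Of 15 cone genes, 1 rose and 2 fell, with a median of −0.063. Their summed level overlapped between the groups, at 1497 to 1789 CPM in LPSREPOP and 1757 to 1847 CPM in REPOP60. Cone arrestin, Arr3, was at 174, 119, 170.4 and 243 CPM in LPSREPOP and 249.6, 251, 282 and 257 CPM in REPOP60. Its log2 fold change was −0.56 ± 0.11 (SE, edgeR FDR = 0.00361), and Pde6h fell with −0.46 ± 0.10 (SE, edgeR FDR = 0.00979). The M opsin gene Opn1mw rose by 0.32 ± 0.084 (SE, edgeR FDR = 0.0295), while the S opsin gene Opn1sw had a log2 fold change of −0.017 ± 0.057 (SE, edgeR FDR = 0.926). Of 31 genes of inner retinal neurons, none rose and 3 fell, the neurofilaments Nefh (−0.32) and Nefm (−0.20) and Prkca (−0.20), a kinase of rod bipolar cells. Their edgeR FDR was 0.0156, 0.0279 and 0.0458. The summed level of the 31 genes was 4379 to 4607 CPM in LPSREPOP and 4615 to 4779 CPM in REPOP60, without overlap. Calls among cone, neuron and rod genes were lost for Arr3 without any 1 of REPOP60 replicates 3 and 4 or LPSREPOP replicates 1 and 3 (edgeR FDR 0.05 to 0.0884), for Pde6h without any 1 of REPOP60 replicates 1, 2, 3 and 4 or LPSREPOP replicates 1 and 3 (edgeR FDR 0.0514 to 0.104), for Opn1mw without any 1 of REPOP60 replicates 1, 2, 3 and 4 or LPSREPOP replicates 1, 2 and 3 (edgeR FDR 0.0652 to 0.193), for Nefh without any 1 of REPOP60 replicates 1, 2 and 4 or LPSREPOP replicate 3 (edgeR FDR 0.0809 to 0.190), for Nefm without any 1 of REPOP60 replicates 1, 2, 3 and 4 or LPSREPOP replicates 1 and 3 (edgeR FDR 0.0662 to 0.130), for Prkca without any 1 of REPOP60 replicates 1, 2, 3 and 4 or LPSREPOP replicates 2, 3 and 4 (edgeR FDR 0.0586 to 0.242), for Gucy2f without any 1 of REPOP60 replicates 1, 2, 3 and 4 or LPSREPOP replicates 2 and 3 (edgeR FDR 0.0809 to 0.219), for Grk1 without any 1 of REPOP60 replicates 1, 2, 3 and 4 or LPSREPOP replicates 2 and 3 (edgeR FDR 0.118 to 0.234) and for Rp1 without any 1 of REPOP60 replicates 1, 2, 3 and 4 or LPSREPOP replicates 2 and 3 (edgeR FDR 0.0827 to 0.238).

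The same contrast with resident microglia was fitted in 1 model over the 13 mice, so that values from both settings can be set side by side. Unchallenged REPOP60 and CD retinas differed in 0 of 27025 genes at an edgeR FDR under 0.05, and in 505 at an unadjusted p under 0.05. In this model 262 genes rose and 92 fell in LPSREPOP against REPOP60 (0.969% and 0.34% of 27025), and 243 rose and 141 fell in LPSCD against CD (0.899% and 0.522%). Of the genes that rose, 102 were shared, 38.9% of the LPSREPOP list and 42.0% of the LPSCD list. Of those that fell, 16 were shared, 17.4% and 11.3% of the lists. No gene was called in opposite directions, and these 2 contrasts share no mouse. The LPSCD counts rest on 5 mice. They came to 4 genes without either CD mouse, to 2913, 583 and 538 without LPSCD replicates 1 to 3, to 194, 214, 260 and 196 without REPOP60 replicates 1 to 4, and to 621 without LPSREPOP replicate 2. CD replicate 1 was the only one of the 13 mice with a title number beginning with 2. A term for the title series thus fitted that mouse on its own. It left 1 CD mouse in the contrast, so that its result cannot be read as an adjustment and is not given.

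Of the 98 DEGs that rose in LPSREPOP, 96 had a positive log2 fold change in LPSCD and 48 of them passed there, with a median of 1.57. Of the 11 that fell, 8 had a negative log2 fold change in LPSCD and none passed there (smallest edgeR FDR 0.0812), with a median of −0.45. Vwf was at 46.3, 80.0 and 70.7 CPM in LPSCD and 8.83 and 16.9 CPM in CD, a log2 fold change of 2.35 ± 0.25 (SE, edgeR FDR = 2.37e-06). Lcn2 was at 7.27, 48.9 and 106 CPM and 4.22 and 4.59 CPM, with a log2 fold change of 3.62 ± 0.76 (SE, edgeR FDR = 0.0129). In Lcn2 as in Serpina3n (10.8, 37.2 and 177 CPM in LPSCD), LPSCD replicate 1 was low and replicate 3 high, so that these mice varied widely too. C1qb was more even, with 10.3, 11.9 and 15.8 CPM and 2.90 and 1.62 CPM and a log2 fold change of 2.48 ± 0.29 (SE, edgeR FDR = 1.24e-05). Among the lists, endothelial identity had 9 raised genes of 30 in LPSCD, endothelial activation 10 of 30, complement 9 of 23, acute phase 6 of 20 and microglia markers 9 of 30. Fibroblast and meningeal genes had 1 of 18. Their median log2 fold change in LPSCD was 0.94, beside 0.78 in LPSREPOP in the fit of 8 mice, and 0 of them had an unadjusted interaction p under 0.05.

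The difference between the settings was tested as an interaction. No gene passed at an edgeR FDR under 0.05 (0% of 27025, smallest FDR 0.493), 1522 genes (5.63%) had an unadjusted p under 0.05, and DESeq2 called 0 genes, with 729 at an unadjusted p under 0.05. The 0 became 977, 14 and 36 genes without LPSCD replicates 1, 2 and 3, and stayed 0 without any 1 of the other mice. Among the DEGs of LPSREPOP, 13 of the 98 that rose and 9 of the 11 that fell had an unadjusted interaction p under 0.05. These DEGs were selected on the difference between LPSREPOP and REPOP60, which is part of the interaction. A share above the 5.63% of all genes thus partly follows from the selection and is no test. The 3 genes with the smallest p were Gckr, Gm43343 and Glp2r. Gckr, the regulator of glucokinase, rose in LPSREPOP, from 63.3, 64.1, 69.8 and 63.0 CPM to 131, 149, 104 and 86.0 CPM (log2 fold change 0.85 ± 0.11, SE, edgeR FDR = 1.14e-05). In LPSCD it was at 95.6, 34.8 and 58.1 CPM and in CD at 61.0 and 127 CPM, so that LPSCD and CD overlapped (interaction edgeR FDR = 0.493). Glp2r was at 112, 596 and 1038 CPM in LPSCD and 265 and 266 CPM in CD, and the 3 LPSCD mice spanned the values of all other groups (interaction edgeR FDR = 0.493). Gm43343, which lies within Apbb2, was under 2 CPM in every mouse (interaction edgeR FDR = 0.493). Stat3 and Socs3 had log2 fold changes in LPSCD of 1.20 (edgeR FDR = 0.0129) and 2.36 (edgeR FDR = 0.00451), and Egr1 and Kif4 of −0.64 (edgeR FDR = 0.0812) and −0.63 (edgeR FDR = 0.525). The interaction of these 4 did not pass (edgeR FDR = 0.845 for each).

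**Figure D5:**
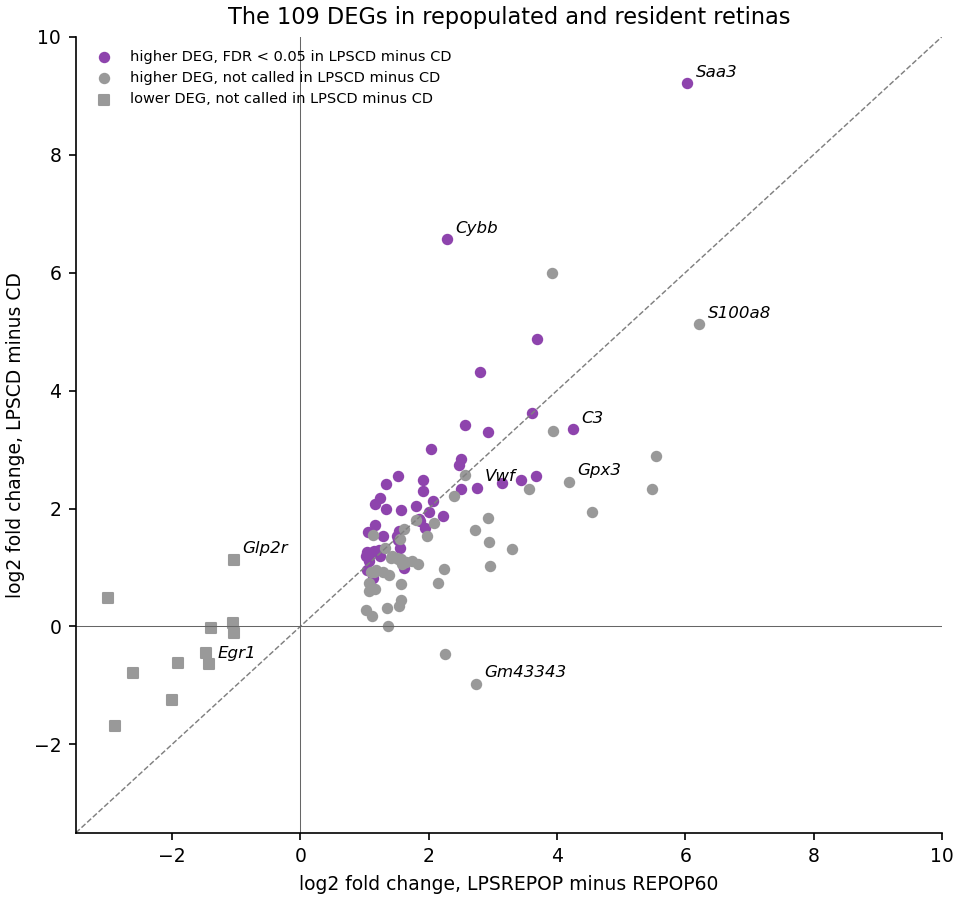
Log2 fold change of LPSREPOP against REPOP60 (horizontal axis) and of LPSCD against CD (vertical axis) in the 13-mouse model for the 109 DEGs, each point a gene. Most of the 98 that rose lie in the upper right, the 11 that fell have both signs on the vertical axis, and fitted values of genes at 0 in a whole reference group depend on the prior count.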

How the data were processed

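Retinal poly-A RNA was sequenced on the BGISEQ-500, with a kit that is not stated to keep strand. The authors aligned reads to mm10 with HISAT2, and deposited reads counted per gene with HTSeq (the count table) and FPKM values from StringTie, versions not given in the sources used here. Their additive batch model names no batches, so none was used. Counts were fitted with edgeR 4.0.16 (R 4.3.3), TMM normalization and the quasi-likelihood F test, on the 8 mice of the comparison. Tested genes had a count of at least 1 in at least 0.5 of the mice of either group. FDR is Benjamini-Hochberg over all tested genes, and the SE is the log2 fold change over the square root of F. The interaction used the 13 mice with the common title suffix (LPSREPOP, REPOP60, LPSCD and 2 CD).

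Depth was 7431272 to 7837824 counts over these 13 mice, and 0 value columns could not be mapped to a sample. Symbols and coordinates came from GENCODE M21 (GRCm38), which held 50462 of 50686 identifiers. Genes were named by rule. Of the DEGs without overlap, the rule took the 15 with the largest rise and the 10 with the largest fall, then up to 6 called genes and the anchor genes of each list and the 3 smallest interaction p-values, leaving genes under a mean of 1 CPM in both groups out of the ranked parts. Other list genes are given as contrast and were chosen after their values were seen. The members and the lists were chosen with earlier results of these data known, so list counts are no independent evidence. P-values set a difference between groups against the spread between mice of this experiment. On data simulated for LPS_PLX against RP2M (23875 genes in the fit), 100% of 100 genes changed by a log2 fold change of 1.5 and 100% of 100 changed by 2 were recovered, and 3 unchanged genes were called. Only genes well above the floor were changed, and no simulated mouse responded more weakly over many genes, as LPSREPOP replicate 4 did. The recovery thus checks the fit and does not give the sensitivity for genes near the floor. Alternatives were DESeq2 1.42.0, RLE normalization, the likelihood ratio test, filterByExpr, no filter, the replicate number as a block, the title series as a term, limma 3.58.1 on log2(FPKM + 1) of the deposited FPKM, all 16 groups in one fit, a reference widened by 1 mouse from each of 2 shorter repopulation groups, and each mouse left out. Ratios against 1 to 3 reference counts carry exact counting intervals. Motifs were searched in RefSeq promoters. Figures were drawn with matplotlib 3.10.9 under Python 3.11.15. Raw reads were not analysed here. Results that need items withheld for evaluation are not reported here.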

Additional observations from a re-analysis of the deposited data

Results flagged for a closer look

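In groups of 4 mice, a value was picked out where its gap to the nearest other mouse, divided by the range of the group, exceeded Dixon's critical value for 4 samples. Of 272 groups of values from the named genes, 17 did so, and chance alone does so in about 1 group in 20. In LPSREPOP, replicate 2 was highest for Eng (24.1 CPM), F11 (2.49 CPM), Plin4 (13.6 CPM) and Tsc22d3 (25.9 CPM), replicate 3 for Steap4 (10.9 CPM) and replicate 1 for Rgs5 (79.3 CPM). LPSREPOP replicate 4 was lowest for Vwf (36.6 CPM) and highest for Insl5 (6.404 CPM) and Nefm (339.8 CPM), 3 genes in which it lay nearest to REPOP60. In REPOP60, replicate 2 was highest for Tmem119 (1.86 CPM) and Car14 (73.6 CPM) and lowest for Fam107a (10.6 CPM), and replicate 1 was lowest for Clu (499 CPM). REPOP60 replicate 3 was highest for Gm43343 (0.265 CPM) and Gckr (69.8 CPM), and replicate 4 was highest for Sele (0.273 CPM) and lowest for Insl5 (7.91 CPM). The values of Gm43343 and Sele are under the floor of 3 counts.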

How the results depend on the processing

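DEGs numbered 109 and ranged from 38 to 171 with single mice left out. They came to 68 with filterByExpr, 179 with no filter, 10 with the title series as a term, 0 with limma on FPKM (3253 genes at an unadjusted p under 0.05) and 66 with all 16 groups. Genes at an FDR under 0.05 numbered 728 and ranged from 238 to 1019. They came to 1259 with no filter, 197 with the title series, 39 with limma on FPKM, 208 with all 16 groups (83.2% of them higher, against 64.0%) and 1173 with the widened reference. DESeq2 gave 85 DEGs and 516 genes. The cause of these shifts was not tested. Replicate numbers did not pair the mice (correlations of same-numbered mice 0.068, −0.0072, 0.023 and 0.011), and the replicate block gave 153 DEGs and 1152 genes. The interaction ranged from 0 to 977 genes with single mice left out, being 0 in the other alternatives. LPSCD against CD gave 384 genes and ranged from 4 to 2913, with 37 by filterByExpr, 3265 with all 5 CD mice and 0 with the title series.

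Signs turned in 7 of the named genes, none of which passed in any alternative. Tmem119 was at −0.00025 with the replicate block and between −0.27 and 0.35 without single mice. P2ry12 was at 0.019 with FPKM. Cd14 was at 0.038 with FPKM, 0.10 with the widened reference and −0.23 to 0.23 without single mice. Nfkbia was at 0.11, 0.026 and −0.056 to 0.069 in the same order. Without single mice, Tnfaip3 was at −0.10 to 0.0089, Tsc22d3 at −0.16 to 0.027 and Opn1sw at −0.050 to 0.031 on the log2 scale.

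Depth limits the sensitivity for cytokines and adhesion molecules near 3 counts. The labels give neither the repopulation time nor the time after LPS for LPSREPOP, so these and LPS cannot be told apart, and LPSCD against CD has 5 mice.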
